A study of Juglans cathayensis with 6 samples.

Results

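Cytochrome P450 monooxygenases are described here in the husk that surrounds the nut of the Chinese walnut, Juglans cathayensis. The members are the assembled genes whose main protein description names a cytochrome P450, without the reductases and without cinnamate 4-hydroxylase, and they number 99 of 39234 listed genes. RNA was sequenced from a variety labelled brown at fresh cutting and a variety labelled white at fresh cutting, with 3 husk libraries each, all carrying the time label 35 days and no treatment. The series was made to learn about enzymatic browning, the darkening of cut tissue as phenolic compounds are oxidized. Each colour is 1 variety, so colour and any other difference between the varieties cannot be told apart. The labels do not say whether libraries came from separate trees, so p-values reflect no more than the scatter of these samples, which may be technical.

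P450 enzymes hold a heme group and use molecular oxygen to add a hydroxyl group to, or otherwise oxidize, small molecules. Most plant P450s sit in the membrane of the endoplasmic reticulum and receive electrons from NADPH-cytochrome P450 reductase, in some reactions with help from cytochrome b5. Plants hold large families of them, which act in the synthesis of phenolics, lignin, cuticle lipids, sterols, terpenoids and carotenoids and in the making and breaking of hormones. Family numbers follow sequence similarity, and a name such as CYP82D47-like here says only which protein the description is closest to, not what the walnut enzyme does.

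Values are TPM, a relative abundance corrected for gene length and scaled to the same total in every library, which keeps no read depth. Depth is therefore unknown, so values carry no counting interval and no detection floor. Differences are log2 fold changes of brown over white husk of TPM + 1, a scale that makes the change of low genes look smaller, with the standard error of the fit. A gene is said to have risen or fallen in brown husk where limma gave an adjusted p under 0.05 over all 37829 tested genes. The test covered genes that reached 1 TPM in 3 or more of the 6 libraries, among them 95 of the 99 members. A gene near 0 in 1 variety could therefore enter the test only through all 3 libraries of the other. In whole husk, fewer cells of a type and less RNA per cell cannot be told apart.

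Of the 95 tested P450 genes, 14 rose in brown husk and 3 fell, and 78 did not pass the threshold. The 14 are 14.7% of the tested members, where 3.83% of all tested genes rose. The 3 are 3.16% of the tested members, where 2.17% of all tested genes fell. All brown libraries lay above all white libraries in 27 members (28.4%), against 20.2% of all tested genes, and below them in 14 members (14.7%), against 8.85% of all tested genes. The median log2 fold change of the members was 0.15 and that of all tested genes 0.19. The median size of the change, whatever its sign, was 0.58 for the members and 0.40 for all tested genes. An unadjusted p under 0.05 was reached by 39 members (41.1%), against 21.5% of all tested genes. With TMM factors (trimmed mean of M-values) 14 members rose and 5 fell, beside 3.62% of all tested genes that rose and 3.02% that fell. With quantile normalization 15 members rose and 6 fell, beside 3.33% of all tested genes that rose and 3.37% that fell, so the balance of rises and falls depended on the scaling. The median of all tested genes was 0.05 with TMM factors where that of the members was -0.01. With quantile normalization the median of all tested genes was -0.01 and that of the members -0.02.

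**Figure D1:**
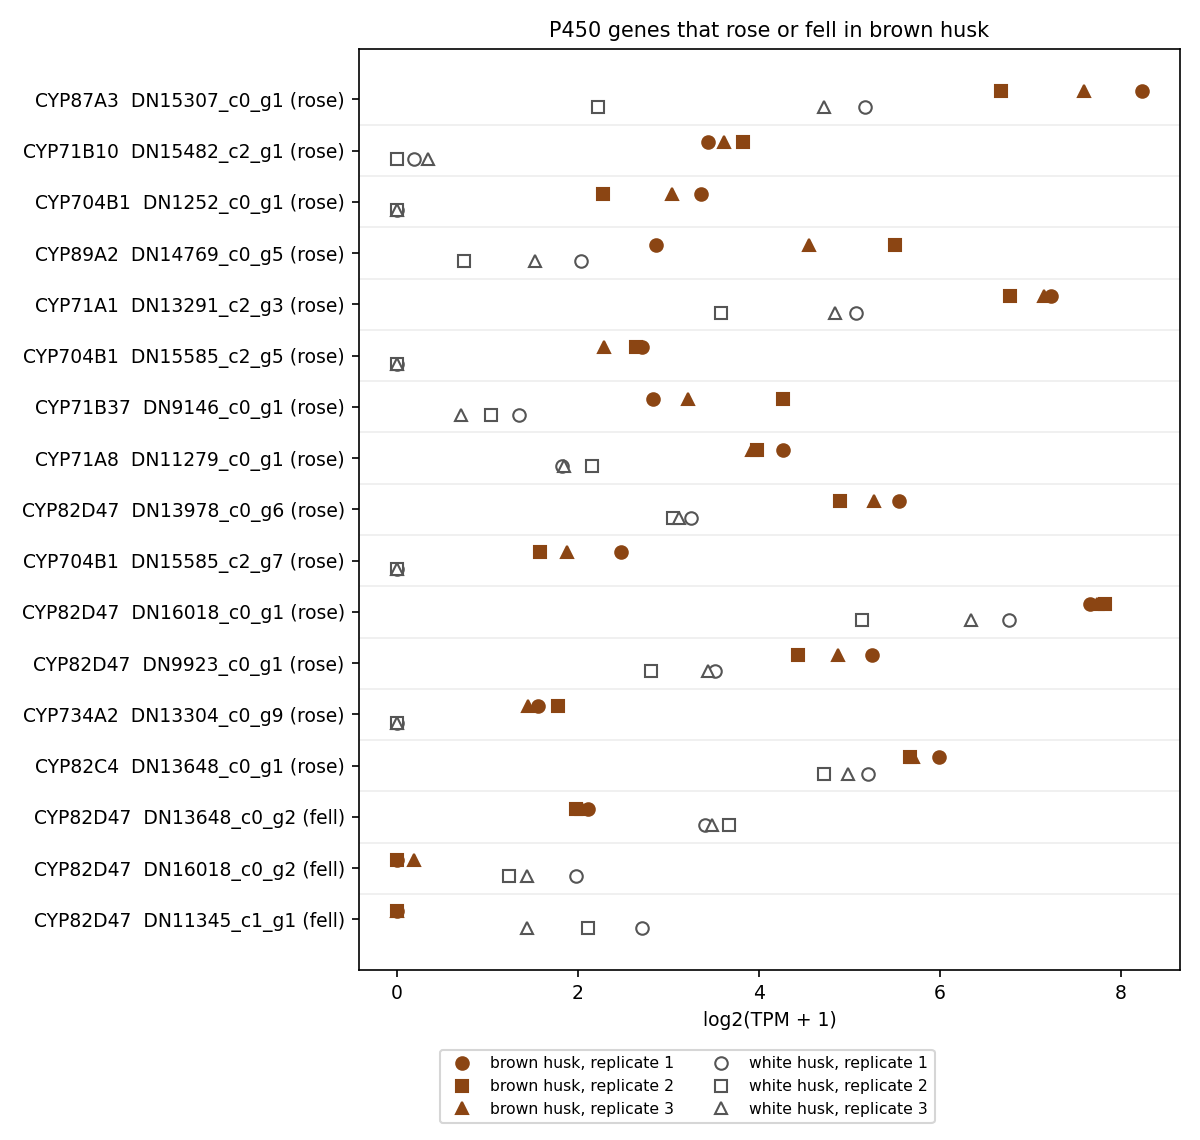
Level of the 17 P450 genes that rose or fell in brown husk, as log2(TPM + 1) in each of the 6 libraries, with filled symbols for brown and open symbols for white husk and 1 symbol shape per replicate number. In 14 genes the filled symbols lie to the right of the open ones and in 3 to the left, and the groups overlap in none of the 17.

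Summed over all 99 members, P450 transcripts reached 3292, 3232 and 3367 TPM in brown replicates 1, 2 and 3, against 2792, 2093 and 2495 TPM in white replicates 1, 2 and 3. The means were 3297 ± 67.6 TPM in brown and 2460 ± 351 TPM in white husk (SD, n = 3 each), a ratio of 1.34, which was 1.25 without white replicate 2 and 1.19 after scaling by TMM factors. The 10 most abundant members took 57.0% to 58.2% of the P450 total in brown libraries and 58.3% to 61.6% in white libraries. Over the 6 libraries, 7 members averaged at least 100 TPM, 36 averaged 10 to under 100 TPM and 56 less than 10 TPM. In each library between 77 and 90 members reached 1 TPM, 84 to 90 in brown and 77 to 87 in white husk.

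White replicate 2 stood apart from the other libraries, with 28349 genes at 1 TPM or more where the others had 33146 to 35240. It was the lowest of the white libraries in 56 of the 95 tested members, a share close to the 61.5% over all tested genes. It was the highest of all 6 libraries in 18 of the 95 (18.9%), against 9.13% of all tested genes. Without it 14 members rose and 3 fell, and 15 of the 17 calls were kept. The count of rises was 5 without brown replicate 3, 6 without white replicate 3 and 8 without brown replicate 2. The count of falls was 0 without brown replicate 3 and 1 without brown replicate 1 or 2 or white replicate 1 or 3. Of the 17 called members, 5 passed the threshold whichever library was left out, and all 17 kept their sign throughout. Among the 5, TRINITY_DN15482_c2_g1, TRINITY_DN1252_c0_g1 and TRINITY_DN15585_c2_g5 were at or near 0 in white husk and entered the test only through the brown libraries. The genes tested in each of these fits were those chosen with all 6 libraries, so the kept calls of such genes do not cover that choice. TRINITY_DN11279_c0_g1 and TRINITY_DN13978_c0_g6, also among the 5, were above 1 TPM in every library. Over all tested genes, 410 to 1255 rose and 259 to 1013 fell in these fits with 5 libraries, where 1450 rose and 819 fell with all 6. The rises were fewer in each of the 6 fits, and the falls were fewer in each but that without white replicate 2, which had the 1013.

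A CYP87A3-like gene rose in brown husk. CYP87 enzymes belong to a clan of P450s whose known plant members oxidize sterols, triterpenoids and related molecules. TRINITY_DN15307_c0_g1 (1944 bases) had 302, 101 and 192 TPM in brown replicates 1, 2 and 3, against 35.1, 3.67 and 25.4 TPM in white replicates 1, 2 and 3. Every brown library stood above every white library, and the libraries of both varieties spread widely. The fitted log2 fold change was 3.46 ± 0.76 (SE), with an adjusted p of 0.0425. Without white replicate 2, the lowest library, the log2 fold change was 2.56 and the call was kept. The call was lost without brown replicate 1, 2 or 3 or white replicate 3, with adjusted p between 0.0812 and 0.135, and also with pseudocounts of 0.1 and 0.5 TPM and without a mean-variance trend.

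The other 4 CYP87 genes were low and none passed the threshold. Their means lay between 0.717 and 6.71 TPM in brown husk and between 3.26 and 8.98 TPM in white husk, with log2 fold changes from -1.34 to 0.17. The family's summed level of 216 ± 103 TPM in brown and 46.9 ± 15.2 TPM in white husk (SD, n = 3 each) therefore came mostly from TRINITY_DN15307_c0_g1. The sterol and triterpenoid group also held a CYP710A11-like gene, and CYP710A enzymes desaturate the side chain of sterols. That gene, TRINITY_DN1783_c0_g1 (250 bases), had 0.960, 4.84 and 9.14 TPM in brown replicates 1, 2 and 3 and was at 0 in every white library. It was not tested because it reached 1 TPM in only 2 libraries.

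**Figure D2:**
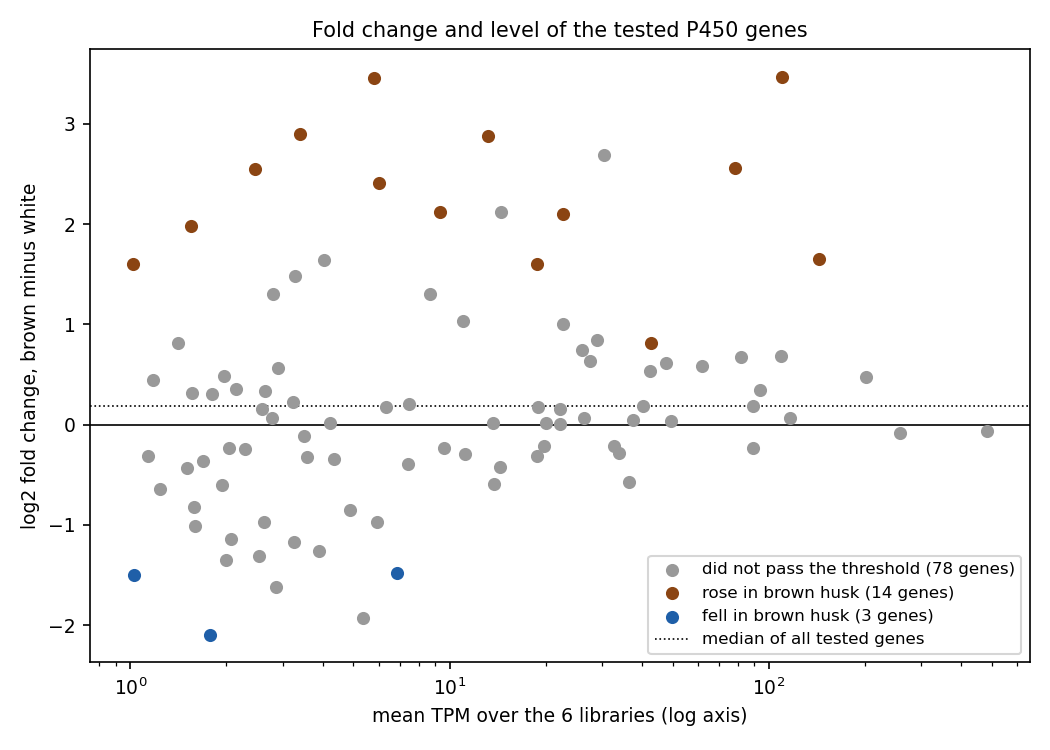
Log2 fold change of brown over white husk for the 95 tested P450 genes, against the mean TPM over the 6 libraries on a log axis, with genes that rose, fell or did not pass the threshold in separate colours. The 3 genes that fell lie at low levels, while rises occur from low levels up to the CYP87A3-like and CYP82D47-like genes above 100 TPM.

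CYP82 held the most calls of any family, 7 of its 11 genes, all tested. Of these 4 rose and 3 fell, so calls in this family ran in both directions. CYP82 enzymes belong to the CYP71 clan, the large group of plant P450s with roles in specialised metabolism. The family's TPM summed to 469, 587 and 540.0 in brown replicates 1, 2 and 3, against 348, 176 and 287 in white replicates 1, 2 and 3. All brown sums were above all white sums, with means of 532 ± 59.2 TPM in brown and 270.3 ± 87.1 TPM in white husk (SD, n = 3 each).

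The most abundant CYP82 gene, the CYP82D47-like TRINITY_DN16018_c0_g1 (1812 bases), had 201, 226 and 212 TPM in brown replicates 1, 2 and 3, against 108, 34.2 and 80.2 TPM in white replicates 1, 2 and 3. The brown libraries lay close together and the white ones did not, white replicate 2 being the lowest. The gene rose (log2 fold change 1.66 ± 0.38, SE; adjusted p = 0.0486, limma). That call was lost without brown replicate 1, 2 or 3 or white replicate 3, with adjusted p between 0.103 and 0.156, and with either other pseudocount, without the filter on low values and without the trend.

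A second CYP82D47-like gene, TRINITY_DN13978_c0_g6 (1977 bases), had 45.8, 28.9 and 37.7 TPM in brown replicates 1, 2 and 3, against 8.53, 7.33 and 7.73 TPM in white replicates 1, 2 and 3. The groups were far apart beside their spread, with means of 37.5 ± 8.44 TPM in brown and 7.86 ± 0.611 TPM in white husk (SD, n = 3 each). It rose (log2 fold change 2.10 ± 0.20, SE; adjusted p = 0.00222, limma) and passed the threshold whichever library was left out. Another, TRINITY_DN9923_c0_g1 (1665 bases), had 37.1, 20.7 and 28.5 TPM in brown replicates 1, 2 and 3, against 10.4, 6.02 and 9.84 TPM in white replicates 1, 2 and 3. It rose (log2 fold change 1.60 ± 0.28, SE; adjusted p = 0.0192, limma), a call lost without brown replicate 1 or 3 or white replicate 3 (adjusted p between 0.0587 and 0.0865). That gene lies outside the rule for named genes and was singled out after its values were seen.

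The CYP82C4-like TRINITY_DN13648_c0_g1 (1878 bases) had 62.9, 50.0 and 51.3 TPM in brown replicates 1, 2 and 3, against 36.0, 25.4 and 30.8 TPM in white replicates 1, 2 and 3. In Arabidopsis, CYP82C4 hydroxylates a coumarin that roots release to take up iron. The groups did not overlap, and the gene rose with the smallest change of the 14 (log2 fold change 0.82 ± 0.17, SE; adjusted p = 0.0371, limma). Without brown replicate 1, 2 or 3 or white replicate 3 its adjusted p was between 0.0992 and 0.120, and the call was also lost without the trend.

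The 3 members that fell in brown husk were all CYP82D47-like. TRINITY_DN13648_c0_g2 (1686 bases) had 3.35, 2.95 and 3.14 TPM in brown replicates 1, 2 and 3, against 9.65, 11.8 and 10.2 TPM in white replicates 1, 2 and 3. Both groups were tight, and it fell (log2 fold change -1.48 ± 0.21, SE; adjusted p = 0.0106, limma), a call lost without brown replicate 3 or white replicate 3 (adjusted p between 0.0540 and 0.0587). TRINITY_DN16018_c0_g2 (502 bases) was listed at 0, 0 and 0.140 TPM in brown replicates 1, 2 and 3 and had 2.95, 1.37 and 1.72 TPM in white replicates 1, 2 and 3. Its log2 fold change was -1.49 ± 0.32 (SE; limma, adjusted p = 0.0393), and only leaving out white replicate 2 kept the call (adjusted p between 0.0930 and 0.129 without any other single library), while a pseudocount of 0.1 TPM and no filter also ended it. TRINITY_DN11345_c1_g1 (271 bases) was listed at 0 in all 3 brown libraries and had 5.57, 3.34 and 1.72 TPM in white replicates 1, 2 and 3 (limma, adjusted p = 0.0247). No fold is given for it, and its call was lost without any single library other than white replicate 3, with adjusted p between 0.0562 and 0.0976. Both TRINITY_DN11345_c1_g1 and TRINITY_DN16018_c0_g2 entered the test only through the white libraries.

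Opposite calls occurred inside 2 assembly clusters, the sets of genes that the assembler split from shared sequence. In cluster TRINITY_DN13648_c0 the CYP82C4-like gene g1 rose, the CYP82D47-like g2 fell, and the CYP82D47-like g3 did not pass the threshold. That gene, TRINITY_DN13648_c0_g3, had 8.57, 41.0 and 22.6 TPM in brown replicates 1, 2 and 3, against 7.78, 0.910 and 5.87 TPM in white replicates 1, 2 and 3 (limma, adjusted p = 0.135). In cluster TRINITY_DN16018_c0 the abundant g1 rose and the short g2 fell. Reads shared between such close copies can be divided between them, and whether they were was not tested here.

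Among the 4 CYP82 genes that did not pass the threshold, the CYP82G1-like TRINITY_DN13116_c0_g3 was the most abundant. In Arabidopsis, CYP82G1 makes volatile homoterpenes. It had 74.3, 183 and 151 TPM in brown replicates 1, 2 and 3, against 105, 49.3 and 93.7 TPM in white replicates 1, 2 and 3, and the groups overlapped (log2 fold change 0.69 ± 0.40; limma, adjusted p = 0.370). The CYP82D47-like TRINITY_DN5691_c0_g1 had 34.1, 24.8 and 28.6 TPM in brown replicates 1, 2 and 3, against 52.2, 35.7 and 44.1 TPM in white replicates 1, 2 and 3. All its brown values were below all its white values, its adjusted p was 0.136 by limma, and it fell with TMM factors (adjusted p = 0.0232) and with quantile normalization (adjusted p = 0.0393).

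**Figure D3:**
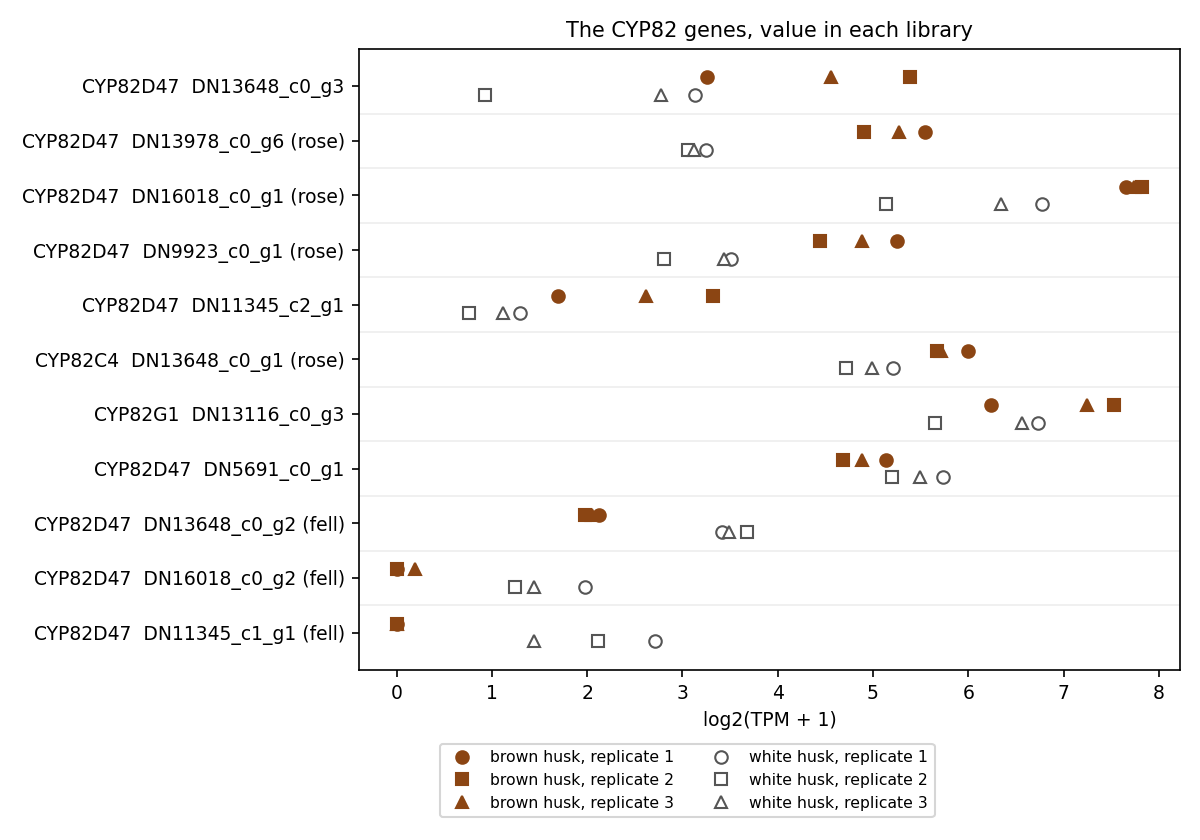
The 11 CYP82 genes, as log2(TPM + 1) in each of the 6 libraries, sorted by log2 fold change, with filled symbols for brown and open symbols for white husk. The 4 genes that rose and the 3 that fell are marked, and the groups of TRINITY_DN13978_c0_g6 lie far apart beside their spread.

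CYP71 was the largest family, with 16 genes, of which 15 were tested, 4 rose and none fell by limma. An unadjusted p under 0.05 was reached by 8 with a positive and 1 with a negative change. The fitted change was positive in 13 of the 15 with the deposited scaling, with TMM factors and with quantile normalization. With the deposited scaling it was positive in 64.3% of all tested genes and 60% of the tested members. Some of the 15 share a cluster, 3 of them TRINITY_DN15240_c0, so they are not separate observations. The sums were 369, 326 and 358 TPM in brown replicates 1, 2 and 3, against 141, 155 and 138 TPM in white replicates 1, 2 and 3. The brown sums were all above the white ones, with means of 351 ± 22.1 TPM in brown and 144 ± 9.11 TPM in white husk (SD, n = 3 each). Much of that gap came from TRINITY_DN13291_c2_g3, with means of 133 TPM in brown and 23.8 TPM in white husk, which Swiss-Prot places in another family.

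The CYP71B10-like TRINITY_DN15482_c2_g1 (1746 bases) had 9.85, 13.2 and 11.3 TPM in brown replicates 1, 2 and 3, against 0.140, 0 and 0.270 TPM in white replicates 1, 2 and 3. It was near 0 in all white libraries and even across the brown ones. It had the lowest adjusted p of all members, 0.00140 by limma, with a log2 fold change of 3.45 ± 0.29 (SE), and passed the threshold in every fit that left out 1 library. The gene entered the test only through the brown libraries, and those fits did not apply the filter again. The partial CYP71B37-like TRINITY_DN9146_c0_g1 (260 bases) had 6.11, 18.3 and 8.32 TPM in brown replicates 1, 2 and 3, against 1.55, 1.06 and 0.640 TPM in white replicates 1, 2 and 3. Its groups did not overlap although brown replicate 2 stood above the other brown libraries, and it rose (log2 fold change 2.40 ± 0.42, SE; adjusted p = 0.0204, limma). Without brown replicate 2 or 3 or white replicate 3 its adjusted p was between 0.0612 and 0.0770.

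The CYP71A8-like TRINITY_DN11279_c0_g1 (1837 bases) had 18.3, 14.8 and 14.2 TPM in brown replicates 1, 2 and 3, against 2.54, 3.47 and 2.60 TPM in white replicates 1, 2 and 3. Both groups were tight, and it rose (log2 fold change 2.12 ± 0.22, SE; adjusted p = 0.00326, limma) and passed the threshold whichever library was left out. The most abundant CYP71 gene that rose was TRINITY_DN13291_c2_g3 (1917 bases), CYP71A1-like by its main description and CYP750A1-like by Swiss-Prot. It had 149, 109 and 142 TPM in brown replicates 1, 2 and 3, against 32.7, 10.97 and 27.8 TPM in white replicates 1, 2 and 3. The lowest brown value was above the highest white value, and the log2 fold change was 2.56 ± 0.37 (SE; limma, adjusted p = 0.0113), a call lost only without brown replicate 3 (adjusted p = 0.0553).

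The CYP71 genes that did not pass the threshold had log2 fold changes from -1.14 to 1.65. One of them, the CYP71A1-like TRINITY_DN11539_c0_g1, had 66.4, 76.7 and 78.8 TPM in brown replicates 1, 2 and 3, against 45.5, 56.6 and 45.6 TPM in white replicates 1, 2 and 3, with no overlap (limma, adjusted p = 0.0652). The CYP71B9-like TRINITY_DN15482_c1_g2 was not tested and had 0.370, 3.18 and 1.68 TPM in brown replicates 1, 2 and 3, against 0, 0.160 and 0.190 TPM in white replicates 1, 2 and 3. Both were singled out after their values were seen.

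CYP89, another CYP71-clan family, held 6 genes, of which 1 rose. In Arabidopsis, CYP89A9 oxidizes breakdown products of chlorophyll in senescing leaves. The gene that rose, TRINITY_DN14769_c0_g5 (2159 bases), is CYP89A2-like by its main description and CYP89A9-like by Swiss-Prot. It had 6.28, 44.4 and 22.6 TPM in brown replicates 1, 2 and 3, against 3.10, 0.680 and 1.88 TPM in white replicates 1, 2 and 3. The brown values spread widely, with brown replicate 2 the highest and brown replicate 1 the lowest, and the log2 fold change of 2.87 ± 0.66 (SE) had the weakest support of the 17 calls (limma, adjusted p = 0.0495). The call was kept in only 2 of 14 alternative fits, and those that lost it included the fits without any single library other than brown replicate 1 (adjusted p between 0.0701 and 0.161), those with either other pseudocount, and those with TMM factors or quantile normalization. The log2 fold change was 3.60 without brown replicate 1 and 2.28 without brown replicate 2. Its cluster partner TRINITY_DN14769_c0_g3 had 90.0, 120.1 and 102 TPM in brown replicates 1, 2 and 3, against 105, 60.7 and 83.3 TPM in white replicates 1, 2 and 3, and the groups overlapped (limma, adjusted p = 0.411).

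Other CYP71-clan families held no call by limma, and an unadjusted p under 0.05 was reached by 0 of 6 CYP81, 1 of 6 CYP736 and 1 of 5 CYP705 genes. CYP81, which in legumes holds isoflavone hydroxylases, summed to 497 ± 72.9 TPM in brown and 502 ± 115 TPM in white husk (SD, n = 3 each) over 6 genes. Its leading gene, the CYP81E8-like TRINITY_DN15800_c0_g1, had 311, 204 and 234 TPM in brown replicates 1, 2 and 3, against 316, 205 and 270.3 TPM in white replicates 1, 2 and 3 (log2 fold change -0.08 ± 0.23; limma, adjusted p = 0.870). The levels of both varieties covered nearly the same range. A pair of CYP81D11-like genes followed it, TRINITY_DN12491_c0_g4 with 119 ± 15.1 TPM in brown and 114 ± 23.5 TPM in white husk, and TRINITY_DN12214_c4_g2 with 94.1 ± 2.98 TPM in brown and 84.3 ± 20.8 TPM in white husk (SD, n = 3 each). CYP736 summed to 340.3 ± 71.0 TPM in brown and 241 ± 42.8 TPM in white husk (SD, n = 3 each) over 6 genes, and its median log2 fold change of 0.04 was -0.11 with TMM factors and -0.15 with quantile normalization.

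The leading CYP736A12-like gene, TRINITY_DN15110_c0_g1, had 200.4, 257 and 238 TPM in brown replicates 1, 2 and 3, against 208, 120.2 and 183 TPM in white replicates 1, 2 and 3, and the groups overlapped (limma, adjusted p = 0.286). A second gene of that cluster, TRINITY_DN15110_c0_g2, had 15.3, 86.0 and 55.1 TPM in brown replicates 1, 2 and 3, against 14.6, 0.560 and 11.3 TPM in white replicates 1, 2 and 3. Its log2 fold change of 2.69 was the largest of the members that did not pass the threshold, beside a standard error of 0.95 (limma, adjusted p = 0.158). The 5 CYP705 genes were low, with sums of 11.2 ± 1.24 TPM in brown and 12.6 ± 2.72 TPM in white husk (SD, n = 3 each).

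Among enzymes of cuticle and fatty acid oxidation, 3 of 13 tested genes rose, and all 3 were CYP704B1-like. In Arabidopsis, CYP704B1 hydroxylates long-chain fatty acids for sporopollenin, the polymer of the pollen wall. TRINITY_DN1252_c0_g1 (232 bases) had 9.31, 3.87 and 7.27 TPM in brown replicates 1, 2 and 3, TRINITY_DN15585_c2_g5 (284 bases) had 5.56, 5.25 and 3.89 TPM, and TRINITY_DN15585_c2_g7 (431 bases) had 4.56, 2.00 and 2.70 TPM. All 3 were listed at 0 in every white library, so no fold is given. By limma the adjusted p was 0.00707 for TRINITY_DN1252_c0_g1, 0.00530 for TRINITY_DN15585_c2_g5 and 0.0187 for TRINITY_DN15585_c2_g7. Calls for the first pair were kept whichever library was left out. TRINITY_DN15585_c2_g7 lost its call without brown replicate 3 or white replicate 1 or 3 (limma, adjusted p between 0.0537 and 0.0751). All 3 entered the test only through the brown libraries. The fits that left out 1 library did not apply the filter again, so the kept calls do not cover that choice.

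These 3 are short pieces, and whether they come from a single transcript was not tested here. Cluster TRINITY_DN15585_c2 holds 9 genes, and the others include a peroxidase 73-like gene and genes of unrelated description. The fourth CYP704 gene, the CYP704C1-like TRINITY_DN13214_c0_g4, did not pass the threshold, with 12.1, 7.89 and 10.03 TPM in brown replicates 1, 2 and 3, against 13.7, 11.4 and 11.8 TPM in white replicates 1, 2 and 3 (limma, adjusted p = 0.465).

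No other gene of that group passed the threshold by limma, and 2 of them, both CYP94, had an unadjusted p under 0.05. The most abundant was the CYP94A2-like TRINITY_DN11548_c1_g1, and in vetch CYP94A enzymes hydroxylate the end carbon of fatty acids. It had 65.3, 47.1 and 60.2 TPM in brown replicates 1, 2 and 3, against 46.5, 28.7 and 37.2 TPM in white replicates 1, 2 and 3. The brown libraries were all above the white ones, narrowly, and the log2 fold change was 0.62 ± 0.21 (SE; limma, adjusted p = 0.145). CYP86A and CYP77A enzymes make the hydroxylated fatty acids of cutin. The 3 CYP86 genes summed to 4.79, 6.23 and 3.23 TPM in brown replicates 1, 2 and 3, against 2.08, 1.46 and 8.30 TPM in white replicates 1, 2 and 3. The 2 CYP77 genes summed to 3.34 ± 0.834 TPM in brown and 5.10 ± 1.14 TPM in white husk (SD, n = 3 each). A CYP86A22-like gene, TRINITY_DN10940_c0_g3, was not tested and had 0, 2.57 and 0.810 TPM in brown replicates 1, 2 and 3, against 0, 0 and 0.740 TPM in white replicates 1, 2 and 3.

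Among the members, enzymes of phenolic ring hydroxylation held no call by limma in 2 tested genes, of which 1 had an unadjusted p under 0.05. Genes described as flavonoid 3'-monooxygenase, also P450 enzymes, are not members, since their descriptions do not name a cytochrome P450. One of these, TRINITY_DN12556_c0_g6, had 63.6, 100.4 and 79.3 TPM in brown replicates 1, 2 and 3, against 115, 171 and 120 TPM in white replicates 1, 2 and 3 (limma, adjusted p = 0.110). CYP98A enzymes hydroxylate coumaroyl esters on the way to caffeoyl compounds, chlorogenic acid among them, and CYP84A enzymes add the hydroxyl group that leads to syringyl lignin. The CYP98A2-like TRINITY_DN13984_c1_g2 had 45.1, 45.6 and 57.7 TPM in brown replicates 1, 2 and 3, against 45.6, 20.3 and 40.3 TPM in white replicates 1, 2 and 3. White replicate 1 reached the level of brown replicates 1 and 2, so the groups overlapped, and the log2 fold change was 0.54 ± 0.29 (SE; limma, adjusted p = 0.344). The CYP84A1-like TRINITY_DN14441_c0_g8 was low, with 0.660, 0.890 and 1.03 TPM in brown replicates 1, 2 and 3, against 1.99, 1.91 and 3 TPM in white replicates 1, 2 and 3 (limma, adjusted p = 0.182). The third gene of this group, the CYP73A100-like TRINITY_DN15614_c0_g4, belongs to the cinnamate 4-hydroxylase family and kept its place because its description names only a cytochrome P450. It was not tested, with 0.310, 5.18 and 2.5 TPM in brown replicates 1, 2 and 3, against 0.0700, 0.0400 and 0.240 TPM in white replicates 1, 2 and 3.

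Among enzymes that make hormones, none of 6 tested genes passed the threshold by limma, and an unadjusted p under 0.05 was reached by 2. CYP85A, CYP90A and CYP90B enzymes act in brassinosteroid synthesis, and CYP711A1 in strigolactone synthesis. The most abundant, the CYP85A-like TRINITY_DN14814_c0_g1, had 92.1, 73.1 and 77.4 TPM in brown replicates 1, 2 and 3, against 124, 66.9 and 103 TPM in white replicates 1, 2 and 3, and the groups overlapped (log2 fold change -0.23 ± 0.23; limma, adjusted p = 0.612). The CYP90A1-like TRINITY_DN12415_c0_g2 and the CYP90B1-like TRINITY_DN1115_c0_g1 lay in opposite directions without overlap, the first with 14.9 ± 1.19 TPM in brown and 7.10 ± 2.58 TPM in white husk and the second with 1.69 ± 0.407 TPM in brown and 6.12 ± 3.82 TPM in white husk (SD, n = 3 each). Their adjusted p by limma was 0.0724 for TRINITY_DN12415_c0_g2 and 0.157 for TRINITY_DN1115_c0_g1, and TRINITY_DN12415_c0_g2 rose with TMM factors (adjusted p = 0.0425) and with quantile normalization (adjusted p = 0.0356).

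Of 10 tested genes in families that inactivate hormones, 1 rose. CYP734A1 inactivates brassinosteroids, CYP714A1 deactivates gibberellins in Arabidopsis, and CYP94B3 oxidizes the active jasmonate conjugate. The gene that rose, TRINITY_DN13304_c0_g9 (475 bases), is CYP734A2-like by its main description and CYP714A1-like by Swiss-Prot. It had 1.95, 2.44 and 1.73 TPM in brown replicates 1, 2 and 3 and was listed at 0 in all 3 white libraries (limma, adjusted p = 0.0209), so no fold is given. Only the brown libraries brought TRINITY_DN13304_c0_g9 into the test. Its call was lost without brown replicate 2 or 3 or white replicate 1 or 3, with adjusted p between 0.0608 and 0.0884. The most abundant gene of the group, the CYP734A1-like TRINITY_DN14895_c0_g1, had 94.9, 105 and 100.2 TPM in brown replicates 1, 2 and 3, against 79.7, 46.0 and 65.2 TPM in white replicates 1, 2 and 3. All brown values were above the white ones, and the log2 fold change of 0.68 ± 0.20 (SE) did not pass the threshold (limma, adjusted p = 0.107).

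CYP78 enzymes promote organ growth, and in Arabidopsis CYP78A9 affects fruit and seed size. None of the 4 CYP78 genes passed the threshold by limma, and an unadjusted p under 0.05 was reached by 2. The fitted change was negative in all 4 with the deposited scaling, with TMM factors and with quantile normalization. The CYP78A9-like TRINITY_DN962_c0_g1 was the most abundant of the 99 members, with 378, 508 and 537 TPM in brown replicates 1, 2 and 3, against 453, 526 and 494 TPM in white replicates 1, 2 and 3. The groups overlapped, and the log2 fold change was -0.06 ± 0.20 (SE; limma, adjusted p = 0.886). The CYP78A5-like TRINITY_DN16307_c0_g1 had 2.35, 3.68 and 3.58 TPM in brown replicates 1, 2 and 3, against 7.48, 5.10 and 7.09 TPM in white replicates 1, 2 and 3, without overlap. Its adjusted p was 0.130 by limma, and among the 3 scalings it fell with quantile normalization alone (adjusted p = 0.0387).

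In the remaining groups nothing passed the threshold by limma, and 2 genes of the CYP72 clan had an unadjusted p under 0.05. Of the 4 genes of the CYP72 clan outside the hormone families, the CYP72A219-like TRINITY_DN13446_c2_g4 was the most abundant, with 49.9 ± 8.24 TPM in brown and 48.6 ± 7.65 TPM in white husk (SD, n = 3 each; limma, adjusted p = 0.927). Its short namesake TRINITY_DN7615_c0_g1 (206 bases) had 1.54, 1.27 and 1.18 TPM in brown replicates 1, 2 and 3, against 17.7, 3.82 and 6.65 TPM in white replicates 1, 2 and 3 (limma, adjusted p = 0.0679), and it fell with TMM factors (adjusted p = 0.0358) and with quantile normalization (adjusted p = 0.0234). The CYP749A22-like TRINITY_DN15068_c0_g3, with 32.8 ± 5.08 TPM in brown and 19.2 ± 3.51 TPM in white husk (SD, n = 3 each; limma, adjusted p = 0.0679), rose with quantile normalization alone among the 3 scalings (adjusted p = 0.0370). CYP97 enzymes hydroxylate carotenoids, and the CYP97B2-like TRINITY_DN15411_c0_g3 had 23.3 ± 5.72 TPM in brown and 21.0 ± 5.64 TPM in white husk (SD, n = 3 each; limma, adjusted p = 0.768). The last gene, TRINITY_DN14778_c1_g2, is described as CYP4A25-like, a family not placed in any group here, and had 42.5 ± 2.996 TPM in brown and 37.96 ± 9.81 TPM in white husk (SD, n = 3 each; limma, adjusted p = 0.633).

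**Figure D4:**
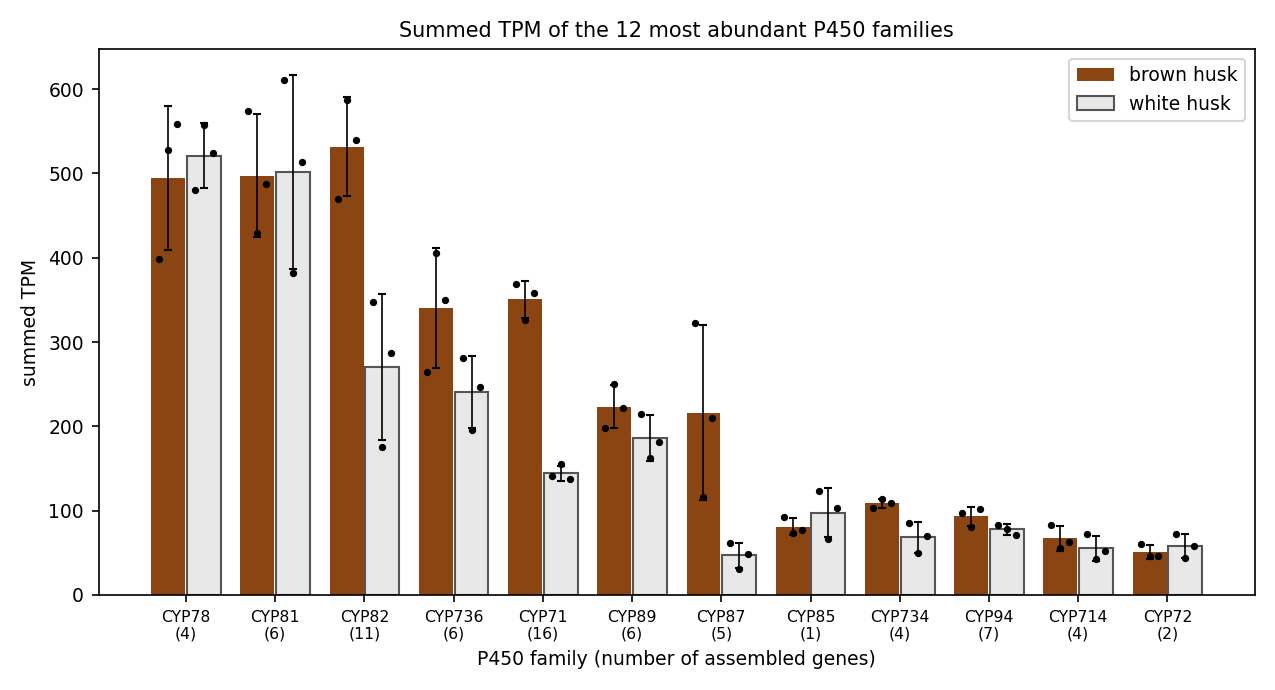
Summed TPM of the 12 most abundant P450 families, with bars for the mean of 3 libraries, error bars for the SD and points for each library, brown husk on the left of each pair and white husk on the right. CYP82, CYP71, CYP87 and CYP734 stand higher in brown husk with no overlap of the points, while CYP81 and CYP78 bars are of similar height.

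The assembled P450 genes ran from 203 to 2773 bases, with a median of 1670 bases, against 549 bases over all listed genes. Of the 99, 38 were shorter than 1000 bases, and these were mostly low, with a median level of 2.47 TPM where the 61 longer genes had a median of 18.9 TPM. Of the 35 tested short genes 5 rose and 2 fell, and of the 60 tested longer genes 9 rose and 1 fell. Over all tested genes of any length 3.83% rose and 2.17% fell. Shares for all genes of like length are not given here, so these counts cannot be set beside one. The CYP704B1-like genes, the CYP71B37-like TRINITY_DN9146_c0_g1 and the CYP734A2-like TRINITY_DN13304_c0_g9 make up the 5 short genes that rose, while the abundant TRINITY_DN15307_c0_g1 and TRINITY_DN13291_c2_g3, which also rose, are long. Many members shared assembly clusters, 43 of them in 17 clusters with at least 2 members, so neighbouring members are not separate observations. With TPM summed over whole clusters, 9 of 72 tested clusters that hold a member rose and 1 fell. These sums took in genes of other description, so they are not levels of P450 genes alone. Cluster TRINITY_DN13214_c0, for example, held 16 genes, of which 1 was a member. In the fit on cluster sums 1429 of all 37625 tested entries rose and 811 fell.

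**Figure D5:**
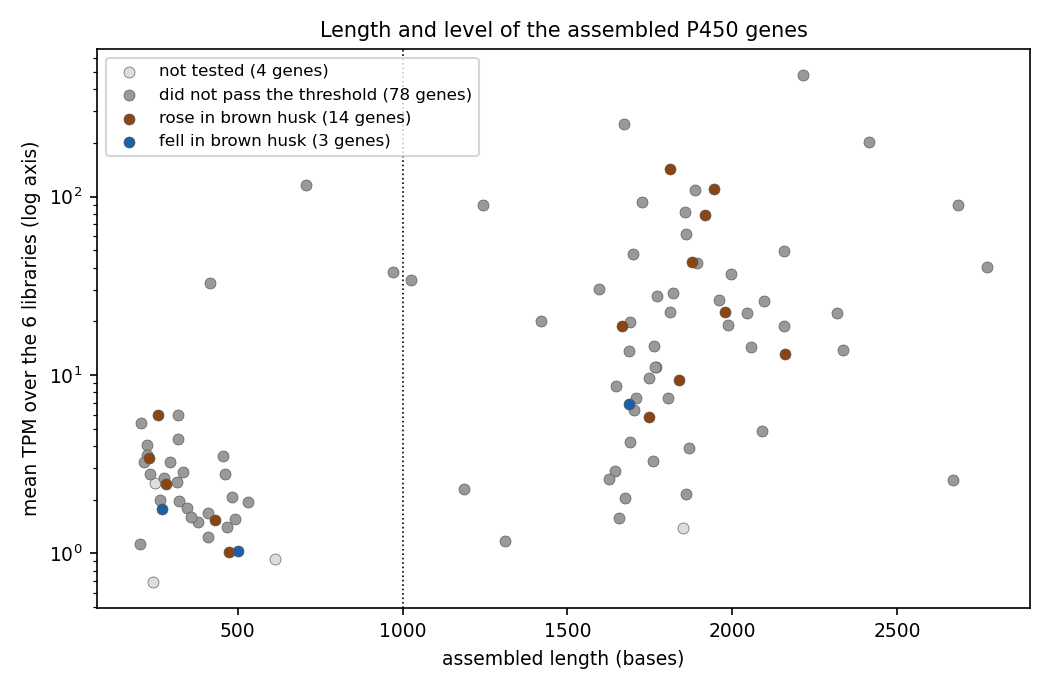
Assembled length in bases of the 99 P450 genes against their mean TPM over the 6 libraries on a log axis, with a dotted line at 1000 bases. Most genes left of the line are low, and the calls lie on both sides of it, 7 of the 17 to its left.

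The Pfam p450 domain was listed for 95 of the 99 (96%), where 0.105% of all other genes had it. The GO term monooxygenase activity was listed for 33 members (33.3%), against 0.191% of all genes, and heme binding for 18 (18.2%), against 0.229%. The GO term endoplasmic reticulum membrane was listed for 0 of the 99, against 0.691% of all genes. The descriptions name 25 families, and 95 members were described from Juglans regia, the common walnut. Of 91 members with a family in both descriptions, 7 had different families in the main description and in Swiss-Prot, so family counts depend in part on which description is used.

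P450 enzymes depend on electron donors and heme, and 1 of 31 tested genes for these rose while none fell by limma. The 1 is 3.23% of these genes, where 3.83% of all tested genes rose. Of these 31 genes, 5 (16.1%) had an unadjusted p under 0.05, against 21.5% of all tested genes. NADPH-cytochrome P450 reductase, the main electron donor, had 2 genes and no call. The more abundant, TRINITY_DN13692_c0_g1, had 239, 218 and 244 TPM in brown replicates 1, 2 and 3, against 216, 184 and 215 TPM in white replicates 1, 2 and 3 (log2 fold change 0.19 ± 0.14; limma, adjusted p = 0.493). Cytochrome b5 had 9 tested genes, of which 1 rose. That gene, TRINITY_DN14344_c2_g6, a cytochrome b5 by its Swiss-Prot description only, had 3.95, 3.31 and 4.44 TPM in brown replicates 1, 2 and 3, against 0.150, 0 and 0.130 TPM in white replicates 1, 2 and 3 (log2 fold change 2.16 ± 0.29; limma, adjusted p = 0.00901). Near 0 in white husk, this gene entered the test only through the brown libraries. The most abundant cytochrome b5 gene, TRINITY_DN15398_c2_g2, had 240 ± 13.8 TPM in brown and 258 ± 22.4 TPM in white husk (SD, n = 3 each; limma, adjusted p = 0.724).

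None of 3 NADH-cytochrome b5 reductase genes passed the threshold by limma, 1 having an unadjusted p under 0.05, and of 17 tested heme synthesis genes none did, 3 of them with an unadjusted p under 0.05. The most abundant heme synthesis gene, TRINITY_DN11946_c0_g12, encodes delta-aminolevulinic acid dehydratase and had 53.7 ± 0.845 TPM in brown and 52.6 ± 4.27 TPM in white husk (SD, n = 3 each; limma, adjusted p = 0.908). Without white replicate 2, the cytochrome b5 gene TRINITY_DN14344_c2_g6 (adjusted p = 0.0218) and a glutamyl-tRNA reductase gene of heme synthesis, TRINITY_DN13713_c0_g1 (adjusted p = 0.0357), passed the threshold by limma. Glutamyl-tRNA reductase catalyses an early step in the synthesis of heme and chlorophyll. With all libraries TRINITY_DN13713_c0_g1 had 27.7, 25.3 and 26.8 TPM in brown replicates 1, 2 and 3, against 16.2, 18.3 and 17.9 TPM in white replicates 1, 2 and 3 (limma, adjusted p = 0.0528).

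Within brown husk a set of members shared an order of libraries. In 10 of the 95 tested members (10.5%) the value was lowest in brown replicate 1 and highest in brown replicate 2, at least 3 times as high, where 5.74% of all tested genes had that pattern. The 10 include the CYP89A2-like TRINITY_DN14769_c0_g5, the CYP736A12-like TRINITY_DN15110_c0_g2, the CYP82D47-like TRINITY_DN13648_c0_g3 and TRINITY_DN11345_c2_g1 and the CYP71D8-like TRINITY_DN15807_c0_g1. The last had 4.84, 22.5 and 12.6 TPM in brown replicates 1, 2 and 3, against 4.74, 3.49 and 3.83 TPM in white replicates 1, 2 and 3. Of the 10, only TRINITY_DN14769_c0_g5 passed the threshold.

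No marker gene defines husk itself, so the tissue label could not be checked against one, and lists for other tissue that dissected husk could hold are given instead. Light-harvesting chlorophyll-binding proteins, abundant in green tissue, summed to 3491, 1894 and 3385 TPM in brown replicates 1, 2 and 3, against 3156, 3859 and 3622 TPM in white replicates 1, 2 and 3, over 14 genes of which none passed the threshold by limma, though an unadjusted p under 0.05 was reached by 3. The lowest of the 6 sums was that of brown replicate 2, the brown library in which the genes just described were highest. Oleosins, oil-body proteins of the kernel, summed over 2 genes to 20.4, 12.3 and 23.9 TPM in brown replicates 1, 2 and 3, against 52.0, 36.2 and 40.1 TPM in white replicates 1, 2 and 3, and TRINITY_DN17035_c0_g1 fell (limma, adjusted p = 0.0487). Secondary-wall cellulose synthases summed over 5 genes to 17.6, 18.7 and 16.7 TPM in brown replicates 1, 2 and 3, against 19.8, 12.9 and 15.8 TPM in white replicates 1, 2 and 3. Among them TRINITY_DN15855_c0_g2 rose (limma, adjusted p = 0.0151), having entered the test only through the brown libraries. None of the others passed the threshold. Their fitted log2 fold changes were -1.45 for TRINITY_DN9578_c0_g2, -0.53 for TRINITY_DN9578_c0_g1, 0.28 for TRINITY_DN13951_c2_g7 and 0.30 for TRINITY_DN15855_c0_g4. The part of tissue makeup in the P450 values was not tested.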

How the data were processed

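Husk RNA from 3 libraries of each of 2 Juglans cathayensis varieties was extracted with a plant RNA kit and made into libraries by Illumina protocols, as the labels state. The submitters' processing notes name cutadapt and FastQC. The gene identifiers deposited by the authors carry the name of the assembler Trinity, and neither the quantifier nor any version is stated there. The values deposited by the authors are TPM per assembled gene, and every listed gene reaches at least 2.01 TPM in some library. The assembled length in bases deposited by the authors, another measure, was used as listed. TPM keeps no depth, so the precision of a value rests on the 3 libraries per variety.

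TPM was transformed as log2(TPM + 1), and brown was compared with white in limma 3.58.1 (R 4.3.3) with a mean-variance trend and no covariates, on genes that reached 1 TPM in 3 or more libraries. P-values were adjusted by Benjamini-Hochberg over all 37829 tested genes. The fit was tested on simulated data. TMM factors were computed on the TPM values. Family names were read from the main description, or from Swiss-Prot where it gives none.

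The members and lists were chosen with earlier results of these data known. Some list patterns were narrowed, and the CYP705 family was given a group, after the descriptions had been seen. Members named are the 10 largest rises and falls past the threshold, the 10 most abundant, the most abundant and every called member of each function group outside the broad CYP71-clan group, members at 0 throughout 1 variety that reached 1 TPM in every library of the other, and called members of clusters with opposite calls. Called partner and heme genes and the most abundant gene of each such list were added. This rule names 29 members. Other members in the text were chosen after their values were seen. Alternatives were TMM factors or quantile normalization, pseudocounts of 0.1 and 0.5 TPM, a filter of 5 TPM or none, a fit without the trend, a replicate block, sums over clusters, only genes of at least 1000 bases, wider choices of members, and leaving out each library.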

Additional observations from a re-analysis of the deposited data

How the results depend on the processing

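With all 99 members, 14 rose and 3 fell in brown husk. The count of rises was 9 with TPM summed over whole assembly clusters, genes of other description included. It was also 9 among genes of at least 1000 bases, and it ran from 5 to 14 when 1 library was left out. The count of falls was 1 with a filter of 5 TPM, 5 with TMM factors (where 3.02% of all tested genes fell), 6 with quantile normalization (3.37%), 1 over clusters, 1 among genes of at least 1000 bases and 5 when members were chosen by the Pfam p450 domain, a choice added after seeing the data, and it ran from 0 to 3 when 1 library was left out. The median log2 fold change of 0.15 became -0.0113 with TMM factors and -0.0162 with quantile normalization, and the summed ratio of 1.34 became 1.19 with TMM factors. The count of called partner and heme genes, 1, ran from 1 to 2 when 1 library was left out, reaching 2 without white replicate 2. The cause of these shifts was not tested. Tested entries numbered 72 with whole clusters summed and 60 with the length limit, against 95 in the main fit. They numbered 53 with the filter of 5 TPM and 128 with the Pfam choice. With the filter of 5 TPM, TRINITY_DN16018_c0_g2 and TRINITY_DN11345_c1_g1, which fell in the main fit, were not tested. The 11 called members tested with that filter kept their calls, and 622 of all 16426 tested genes fell. With the Pfam choice, 819 of all 37829 tested genes fell, as in the main fit.

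Replicate numbers did not meet the criterion for pairing, since same-numbered libraries correlated at 0.06, 0.06 and 0.01 in their deviations from the group means over genes, though each library correlated best with its own number, which is a hint from the data only. With the replicate block 10 members rose and 1 fell, 10 of the 17 calls were kept and 7 were lost, those of TRINITY_DN14769_c0_g5, TRINITY_DN9146_c0_g1, TRINITY_DN15585_c2_g7, TRINITY_DN16018_c0_g1, TRINITY_DN13304_c0_g9, TRINITY_DN16018_c0_g2 and TRINITY_DN11345_c1_g1, and over all tested genes 735 rose and 490 fell, where 1450 rose and 819 fell without it.

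Among single members the sign reversed for low changes that had not passed the threshold: TRINITY_DN12491_c0_g4 (-0.10 with TMM factors), TRINITY_DN13446_c2_g4 (-0.13 with TMM factors, -0.0202 with quantile normalization) and TRINITY_DN15411_c0_g3 (-0.0113 with TMM factors). When 1 library was left out, values ran from -0.0684 to 0.22 for TRINITY_DN12491_c0_g4, from -0.0938 to 0.13 for TRINITY_DN13446_c2_g4, from -0.0767 to 0.29 for TRINITY_DN15411_c0_g3, from -0.16 to 0.0915 for TRINITY_DN962_c0_g1, from -0.25 to 0.0595 for TRINITY_DN15800_c0_g1 and from -0.0302 to 0.32 for TRINITY_DN12214_c4_g2. Over the 29 named members and all alternatives, 323 values kept the sign and lost no call, 63 kept the sign and lost the call, and 14 changed sign. Only 16 of the 29 had a call to lose, so the 63 losses all fall on these. Among all 17 called members, 12 calls were lost without brown replicate 3 and 1 with TMM factors. The unknown depth limits every low value.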

Other observations

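Besides the members, 41 genes carry the Pfam p450 domain under other descriptions, cinnamate 4-hydroxylase among them. Of the 38 tested, 4 rose and 2 fell in brown husk by limma, where 3.83% of all tested genes rose and 2.17% fell. Named after their values were seen, 3 of the 4 that rose are geraniol 8-hydroxylase-like genes of 1 assembly cluster. In periwinkle, geraniol 8-hydroxylase leads into iridoid synthesis. The most abundant of the 3, TRINITY_DN10391_c0_g2, had 14.3, 16.9 and 18.2 TPM in brown replicates 1, 2 and 3, against 2.79, 1.27 and 2.32 TPM in white replicates 1, 2 and 3 (log2 fold change 2.51; limma, adjusted p = 0.00362). Another geraniol 8-hydroxylase-like gene, TRINITY_DN15760_c0_g1, fell, with 102, 129 and 110.2 TPM in brown replicates 1, 2 and 3, against 173, 174 and 186 TPM in white replicates 1, 2 and 3 (log2 fold change -0.65; limma, adjusted p = 0.0399). The other fall was that of TRINITY_DN12416_c0_g4, described as like the alkane hydroxylase MAH1, which in Arabidopsis oxidizes wax alkanes, with 17.1, 20.0 and 19.2 TPM in brown replicates 1, 2 and 3, against 33.0, 28.4 and 32.8 TPM in white replicates 1, 2 and 3 (limma, adjusted p = 0.0320). The fourth rise was that of TRINITY_DN8563_c0_g1, like a dihydroxypterocarpan monooxygenase, with 5.89, 4.53 and 4.47 TPM in brown replicates 1, 2 and 3, against 1.01, 0.720 and 0.600 TPM in white replicates 1, 2 and 3 (limma, adjusted p = 0.0185).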
